A study of Mus musculus with 60 samples.

Results

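The 10 genes described here restrain MAP kinase signalling: the dual-specificity phosphatases Dusp1, Dusp3, Dusp4, Dusp5, Dusp6 and Dusp14, the Sprouty genes Spry2 and Spry4, and the Spred genes Spred1 and Spred2. They were chosen by symbol, and the counts of all their transcripts were summed in each library. They are 10 of the 35889 genes in the files, and all 10 passed the filter on low counts in both regions. RNA was sequenced from neurons of 2 mouse brain regions, the medial prefrontal cortex (mPFC) and the nucleus accumbens (NAc), in animals that had self-administered cocaine and sucrose, gone through extinction and then been tested for cued seeking of each reward. In each region and sex, 3 pools of 3 mice were each sorted into 4 populations, which gives 48 libraries and 6 per population and region. A further 12 libraries are labelled naive, a word the sources used here do not explain.

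Every library, naive ones included, carries the genotype label Ai14xFosiCre and the label of dual cocaine and sucrose self-administration. In these mice a Cre that needs tamoxifen is expressed from the Fos gene, and it switches on the red reporter tdTomato in cells that express Fos while the drug is present. The cocaine-seeking population was NeuN-positive with tdTomato alone, tagged after the cocaine cue test. The sucrose-seeking population was NeuN-positive with cFos protein alone, stained with an antibody after the later sucrose cue test. The overlapping population had both labels and the non-ensemble population neither. The tag and the reward were not swapped between mice, so reward and tagging method cannot be told apart. Both labels rest on Fos alone as the sign of activity. The sorted populations were collected after the sucrose test, which was held on a later day than the cocaine test. Time since the labelled activity thus also differs between cocaine-seeking and sucrose-seeking neurons, and cannot be told apart from reward. The paper asks that the comparison be read as lasting effects of earlier cocaine-seeking activity against ongoing processing of sucrose seeking. The mice were adult when catheters were implanted, and the sample labels give no age. The region label is nucleus accumbens core, while the study describes the punch as mainly lateral shell and lateral core.

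MAP kinase cascades pass a signal from RAS through RAF and MEK to ERK, and parallel arms lead to JNK and p38. ERK activity in turn induces many of its own brakes, so that a burst of synaptic or growth factor input is followed by rising phosphatase and Sprouty levels. In striatal and cortical neurons the ERK arm is engaged by dopamine and glutamate input and is known for its part in responses to drugs of abuse. The inducible nuclear phosphatases are Dusp1, Dusp4 and Dusp5, Dusp6 is the cytoplasmic phosphatase of ERK, and Dusp3 and Dusp14 are small atypical phosphatases. Sprouty proteins act between receptor and RAF, and Spred proteins bring neurofibromin to the membrane, where it switches RAS off.

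The promoters of 4 of these genes are shown because Dusp1 and Dusp5 carry sites of activity-regulated factors, while Spred2 and Dusp3 are the members whose non-ensemble and sucrose-seeking values in the NAc did not overlap. Each is the 250 bases before the RefSeq start on GRCm38.p6, read along the gene's strand: chr17:26508473-26508722 on the minus strand for Dusp1, chr19:53528895-53529144 on the plus strand for Dusp5, chr11:19924192-19924441 on the plus strand for Spred2 and chr11:101984792-101985041 on the minus strand for Dusp3. Capitals mark the CRE TGACGTCA, its shorter form TGACG and the CArG box, the site of serum response factor, on either strand.
Dusp1: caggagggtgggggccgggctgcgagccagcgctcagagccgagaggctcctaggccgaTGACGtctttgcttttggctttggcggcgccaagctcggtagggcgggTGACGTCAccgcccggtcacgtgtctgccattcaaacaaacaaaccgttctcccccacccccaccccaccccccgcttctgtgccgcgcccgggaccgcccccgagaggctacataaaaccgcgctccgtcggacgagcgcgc
Dusp5: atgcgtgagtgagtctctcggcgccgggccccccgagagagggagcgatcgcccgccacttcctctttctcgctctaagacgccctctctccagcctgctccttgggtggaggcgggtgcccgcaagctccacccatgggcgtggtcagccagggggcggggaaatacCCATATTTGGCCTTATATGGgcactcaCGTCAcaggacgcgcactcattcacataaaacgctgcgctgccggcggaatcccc
Spred2: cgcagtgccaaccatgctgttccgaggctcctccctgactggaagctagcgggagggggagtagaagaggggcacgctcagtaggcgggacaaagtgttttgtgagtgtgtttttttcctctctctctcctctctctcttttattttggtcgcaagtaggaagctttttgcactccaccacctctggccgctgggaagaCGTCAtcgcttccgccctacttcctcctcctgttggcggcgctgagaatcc
Dusp3: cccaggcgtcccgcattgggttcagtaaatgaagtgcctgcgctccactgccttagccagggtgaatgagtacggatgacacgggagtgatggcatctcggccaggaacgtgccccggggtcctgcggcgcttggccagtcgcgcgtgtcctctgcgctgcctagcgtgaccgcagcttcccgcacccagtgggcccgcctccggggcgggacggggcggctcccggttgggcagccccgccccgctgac
The full CRE, 143 to 136 bases before the start of Dusp1, was found in 1.55% of 32851 promoters of this length. The shorter TGACG, which also lies within every CRE, was in 17.8% of them and in those of Dusp1, Dusp5 and Spred2. Dusp5 had a pair of adjoining CArG boxes, 82 to 73 and 72 to 63 bases before the start, and 1.47% of promoters held at least 1. The ETS core CCGGAA was in 12% of promoters and, among the 8 members in the promoter table, in that of Dusp14. The AP-1 site TGANTCA, in 6.75% of promoters, and the EGR site GCGNGGGCG, in 4.7%, were in none of the 8. These are matches of letters in a short window, searched on both strands with overlaps between motifs allowed.

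Some libraries went against their labels. In all 8 libraries of female pool 2, Ddx3y, a Y-linked gene, was at 12.1 to 20.3 CPM (counts scaled to a fixed library total), against 0.0666 to 2.27 in the other 16 female libraries and 15.6 to 45.0 in the 24 male libraries. Slc17a7, the glutamate transporter of cortical excitatory neurons, was at 268 to 653 CPM in male mPFC pools 1 and 3 but at 17.6 to 80.9 in the other 16 mPFC libraries, below its 128 to 589 in the NAc. Drd1, the dopamine receptor of striatal projection neurons, was at 27.8 to 73.8 CPM in those 16 libraries and at 11.3 to 43.9 in male pools 1 and 3. The cortical markers are therefore low in the female mPFC libraries and male mPFC pool 2, and results are given below with and without the libraries in question. Samples titled male mPFC are described as female nucleus accumbens core, and samples titled female NAc as male prefrontal cortex. The sex and region of these samples are thus given in 2 ways. The male mPFC pool 3 libraries of overlapping and sucrose-seeking neurons also carry a female sex tag. Groups follow the titles, which match the region label, and every result by region or sex rests on that choice. Total counts were 9933361 to 24500899 per library.

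Measured per length, as TPM (transcript abundance scaled to a fixed total) over the 48 libraries, the atypical phosphatases and Spred genes were the most abundant and Spry4 the least. The median levels were 49.0 TPM for Dusp14, 47.2 for Dusp3, 46.9 for Spred2 and 34.0 for Spred1. Spry2 followed at 22.1 TPM, then Dusp1 at 14.9, Dusp5 at 12, Dusp4 at 11.3, Dusp6 at 10.5 and Spry4 at 6.13. Neighbours in this order overlapped over libraries: Dusp14 ranged from 30.2 to 79.4 TPM and Spred2 from 29.4 to 61.5, so these ranges do not order the leading 3. The same held for Dusp1, Dusp5, Dusp4 and Dusp6. The order within single libraries was not compared. The inducible phosphatases were thus measured at modest levels in these sorted neurons. Dusp5 had the largest ratio between the regions' medians, with a median of 6.93 TPM in the NAc and 17.3 TPM in the mPFC.

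**Figure D1:**
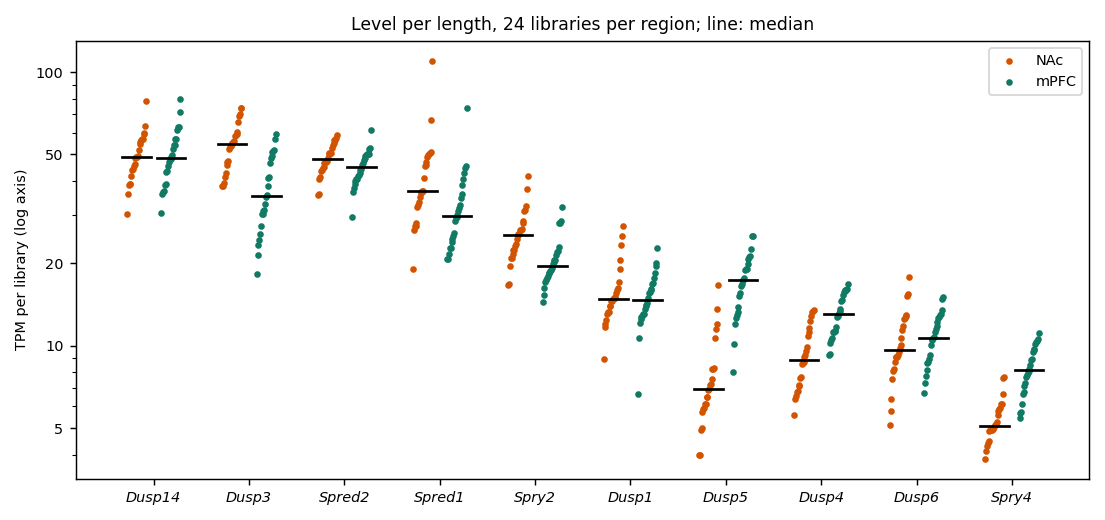
TPM of each gene in each of the 24 NAc and 24 mPFC libraries on a log axis, ordered by the median over 48 libraries, with a line at the median of each region. Dusp14, Dusp3 and Spred2 lie near 50 TPM, Spry4 is lowest, and Dusp5 is the gene whose NAc median (6.93) and mPFC median (17.3) lie farthest apart.

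The levels rest on different numbers of transcripts. Dusp4, Dusp5, Spry2 and Spry4 have a lone transcript in the files. Spred1-201 held 50% and Spred1-202 50% of Spred1 TPM, while Spred2-201 held 71% and Spred2-202 22% of Spred2. Dusp3-201 held 50% of Dusp3 TPM and Dusp6-201 82% of Dusp6, so the abundant forms of these genes are protein-coding. Dusp14 was spread over Dusp14-202 with 34%, Dusp14-201 with 32%, Dusp14-203 with 13% and Dusp14-204 with 12%. The use of strand in counting is not stated, and Dusp3 overlaps Cfap97d1 and Dusp1 overlaps Ergic1 on the opposite strand, so reads in those stretches cannot be told apart.

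In the NAc, sucrose-seeking neurons held less RNA of most of these genes than non-ensemble neurons. 7 of the 10 fell and none rose (edgeR quasi-likelihood test, Benjamini-Hochberg adjusted p under 0.05 over all genes), against 15.8% of the 27546 genes tested that fell, or 32.1% of the 13344 genes with a mean of at least 5 CPM. All 10 had negative log2 fold changes, with a median of −0.55, where the median was 0.20 over all genes and −0.15 over genes of at least 5 CPM. With counts rescaled for transcript length, 9 of the 10 were negative, with a median of −0.58, and 5 rather than 7 fell by the test. By mean TPM, Dusp1 was higher in sucrose-seeking than non-ensemble libraries (17.7 against 15.1), as was Dusp5 (8.96 against 6.43). Each other member was lower. These are bulk libraries, so fewer cells of a type and less RNA per cell cannot be told apart.

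Among the small atypical phosphatases, Dusp3, whose gene lies at chr11:101861969-101877839 on GRCm39, was at 112, 127 and 135 CPM (lowest, median and highest of 6) in non-ensemble and at 69.7, 77.3 and 94.2 CPM in sucrose-seeking libraries. No sucrose-seeking library reached the lowest non-ensemble library, which held for 9.54% of genes with a mean of at least 1 CPM. The log2 fold change was −0.65 ± 0.10 (SE, adjusted p = 5.5e-05). Dusp14 was at 23.1, 26.9 and 38.8 CPM in non-ensemble and 13.1, 19.3 and 23.1 CPM in sucrose-seeking libraries. Its groups met only at their edges, and the log2 fold change was −0.63 ± 0.16 (adjusted p = 0.0036).

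The Spred genes, inhibitors at the level of RAS, fell by similar amounts. Spred2, at chr11:19874355-19974442, was at 92.4, 113 and 127 CPM in non-ensemble and 65.8, 68.0 and 84.8 CPM in sucrose-seeking libraries, with no overlap between the groups. Its log2 fold change was −0.66 ± 0.10 (adjusted p = 7.6e-05). Spred1, at chr2:116951524-117018277, was at 208, 272 and 316 CPM in non-ensemble and 142, 172 and 216 CPM in sucrose-seeking libraries, with a slight overlap. Its log2 fold change was −0.62 ± 0.13 (adjusted p = 0.0009), and in each of the 6 pools the sucrose-seeking library was the lower. With counts rescaled for transcript length this became −1.32 ± 0.23, the direction and the call being kept.

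The Sprouty genes also fell, Spry4 only barely. Spry2 was at 35.0, 44.0 and 54.2 CPM in non-ensemble and 26.3, 30.1 and 42.5 CPM in sucrose-seeking libraries, groups that overlapped, with a log2 fold change of −0.48 ± 0.13 (adjusted p = 0.0056). Spry4 was at 13.4, 15.2 and 19.4 CPM against 9.30, 12.2 and 16.8 CPM, with a log2 fold change of −0.43 ± 0.16 (adjusted p = 0.041). The Spry4 call was kept in 1 of the 24 fits that left out a library, the fit without the sucrose-seeking library of male pool 2, and without female pool 2 its adjusted p was 0.30.

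Of the inducible nuclear phosphatases, Dusp4 fell and Dusp1 and Dusp5 did not pass the test. Dusp4 was at 9.80, 18.3 and 23.1 CPM in non-ensemble and 8.10, 9.80 and 13.5 CPM in sucrose-seeking libraries, and the log2 fold change was −0.74 ± 0.20 (adjusted p = 0.007). The lowest non-ensemble library fell within the sucrose-seeking range. The call was lost without the non-ensemble library of female pool 2 (adjusted p = 0.052). Dusp1, induced within minutes by many stimuli, was at 13.1, 14.8 and 19.7 CPM against 9.58, 13.8 and 18.5 CPM, a log2 fold change of −0.24 ± 0.19 (adjusted p = 0.38). Dusp5 was at 5.02, 7.79 and 14.9 CPM against 5.08, 6.58 and 8.56 CPM, a log2 fold change of −0.33 ± 0.25 (adjusted p = 0.36), and without female pool 2, which holds the highest value, it was −0.05. Dusp6, the cytoplasmic ERK phosphatase, was at 11.3, 18.1 and 26.2 CPM against 12.5, 15.7 and 28.1 CPM, a log2 fold change of −0.10 ± 0.21 (adjusted p = 0.77). The groups of these 3 genes overlapped almost wholly, and a modest difference was not detectable at this spread.

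**Figure D2:**
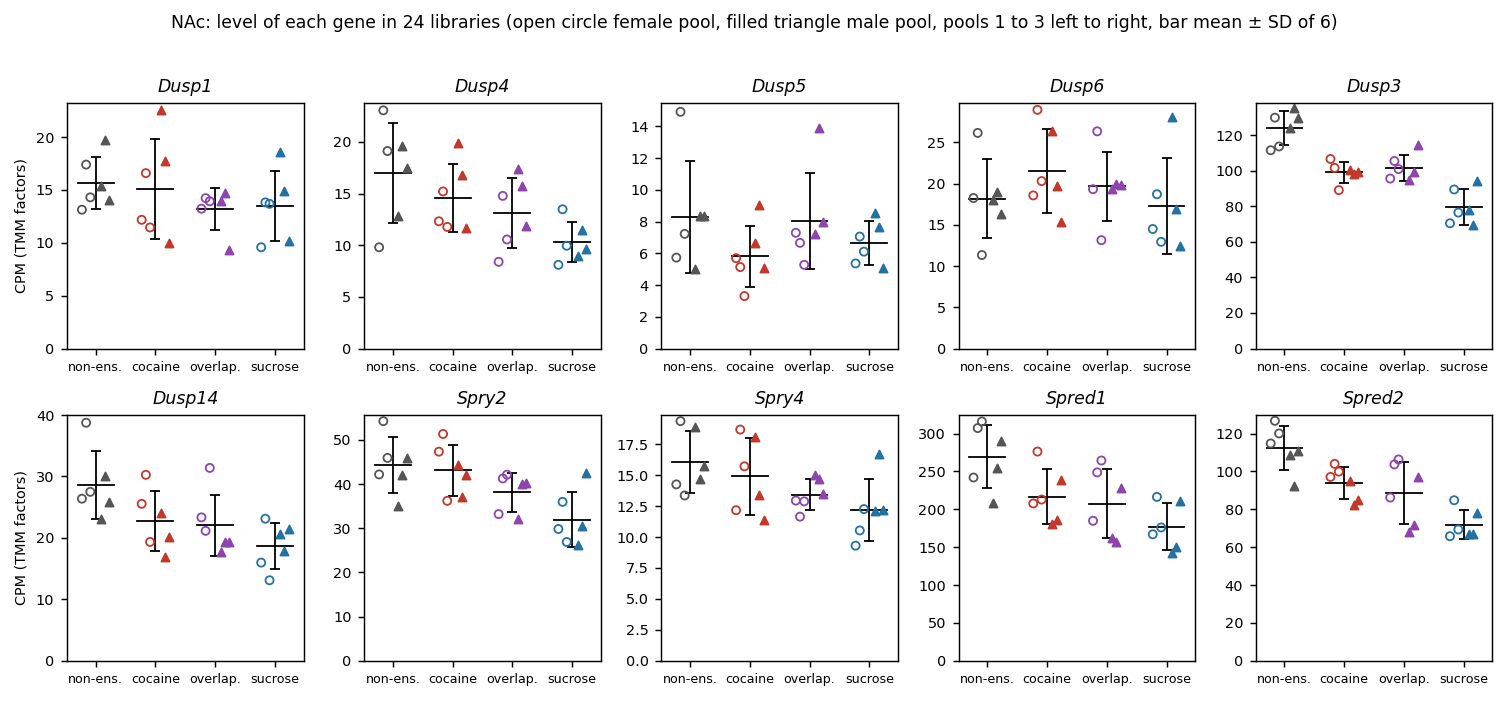
CPM of each gene in the 24 NAc libraries, from 0, by population, with open circles for female pools, filled triangles for male pools, pools 1 to 3 from left to right, and the mean ± SD of 6. Every sucrose-seeking value of Dusp3 (at most 94.2) and Spred2 (at most 84.8) lies below every non-ensemble value, while Dusp1, Dusp5 and Dusp6 overlap across populations.

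Without female pool 2, the 6 other genes that fell in the NAc still passed the test, against 12.3% of all genes that fell. Dusp3, Dusp14, Spry2, Spred1 and Spred2 passed in each of 24 fits that left out a library. Within the sexes, taken alone as the study did, 5 genes fell in female NAc (Dusp3, Dusp14, Spry2, Spred1 and Spred2), against 10.1% of all genes, and 2 in male NAc (Dusp3 and Spred2), against 6.56%. Populations of a pool share mice, and with the pool as a block these became 6 in female NAc, against 15.7% of all genes that fell, and 4 in male NAc, against 12.9%. Both then included Dusp4, and the males Spred1. Dusp3 had, without the block, a log2 fold change of −0.57 ± 0.13 in females and −0.70 ± 0.14 in males, and Spred2 −0.70 ± 0.13 and −0.58 ± 0.16. The test of the difference between the sexes called 0 of the 10 (edgeR, none with an unadjusted p under 0.05, largest estimate −0.56 ± 0.50 for Dusp5, adjusted p = 1), and 0 of all 27546 genes, of which 856 had an unadjusted p under 0.05.

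Markers of cell types moved with this comparison. Summed over 4 neuronal markers, the level was 4321 to 4899 CPM in non-ensemble and 2809 to 3472 CPM in sucrose-seeking NAc libraries, and all 4 fell, with a median log2 fold change of −0.61, close to the members' −0.55. All 5 endothelial markers rose, with a median log2 fold change of 1.20 and a sum of 54.3 to 104 against 88.6 to 230 CPM, and 3 of 4 pericyte and smooth muscle markers rose. Of neuron subtypes, 4 of 5 interneuron, 2 of 3 D1 and 2 of 4 D2 medium spiny neuron and 2 of 4 cortical excitatory markers fell, as did 2 of 5 oligodendrocyte and 1 of 3 oligodendrocyte precursor markers. All 5 astrocyte markers and 1 of 5 microglial markers fell, and no marker of these lists was at 0 in all libraries. Of 15 genes linked to tissue dissociation, 6 fell and none rose, where 32.1% of all genes of at least 5 CPM fell. The sum of these 15 was 1180 to 1308 against 683 to 904 CPM. Their part in the fall of the phosphatases and inhibitors was not tested.

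The rest of the pathway, counted by fixed lists, gives the setting. Of 7 other MAP kinase phosphatases, 2 fell in the NAc and none rose: Dusp8, a phosphatase of JNK and p38, at −0.80 ± 0.15 (adjusted p = 0.00025), and Dusp7, an ERK phosphatase, at −0.67 ± 0.14. Of 12 other feedback inhibitors tested, 3 fell, among them Cbl at −0.38 and Nf1, which encodes neurofibromin, at −0.39. Of 19 genes of the RAS, RAF, MEK and ERK core, 12 fell and none rose, among them Map2k1 (MEK) at −0.72 and Mapk3 (an ERK) at −0.71. Of 20 ERK effectors and targets 7 fell, led by Etv5 at −0.65 ± 0.10, and of 13 genes of the JNK, p38 and ERK5 arms 4 fell and Mapk12, a p38 kinase, rose by 0.92. Of 13 activity genes, 5 fell and none rose, among them Egr4 at −0.91 and Arc at −0.69, in cells sorted on cFos protein. The paper describes immediate early gene expression as found mostly in the sucrose-seeking population, from z-scores relative to non-ensemble. The genes that fell here went the other way. Set against the 32.1% of genes of at least 5 CPM that fell, the counts of the other phosphatases, other inhibitors, effectors and targets, JNK, p38 and ERK5 genes and activity genes were close to that share, and the count of core genes was above it.

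In the mPFC, 4 of the 10 genes fell in sucrose-seeking against non-ensemble neurons and none rose, against 6.36% of the 28851 genes tested that fell, or 12.3% of the 14708 with a mean of at least 5 CPM. The 4 were Dusp3, Dusp14, Spred1 and Spred2, each of which also fell in the NAc. All 10 log2 fold changes were negative, with a median of −0.44 where that of all genes was 0.12. With counts rescaled for transcript length, 9 of the 10 were negative, and 2 rather than 4 fell by the test. By mean TPM, Dusp1 was higher in sucrose-seeking than non-ensemble libraries (15.7 against 13.5), and each other member was lower.

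Dusp3 was at 60.1, 76.4 and 122 CPM in non-ensemble and 40.6, 54.4 and 74.7 CPM in sucrose-seeking mPFC libraries, with a log2 fold change of −0.54 ± 0.13 (adjusted p = 0.0072). Male libraries were the higher in both groups: from 87.1 to 122 CPM against 60.1 to 65.8 CPM in females for non-ensemble, and from 63.4 to 74.7 against 40.6 to 45.4 CPM for sucrose-seeking. Spred2 was at 63.5, 84.0 and 118 CPM against 41.3, 63.8 and 77.8 CPM, with −0.46 ± 0.11 (adjusted p = 0.0092). Spred1 was at 149, 206 and 258 CPM against 106, 128 and 203 CPM, with −0.49 ± 0.12 (adjusted p = 0.011). The groups of these genes overlapped, and the sucrose-seeking library was the lower in all 6 pools. Dusp14 was at 18.9, 23.7 and 36.9 CPM against 12.9, 15.6 and 25.8 CPM, with −0.55 ± 0.16 (adjusted p = 0.024), a call that was lost in 4 of the 24 fits that left out a library: the non-ensemble libraries of female pool 2 and male pool 2 and the sucrose-seeking libraries of female pool 3 and male pool 1.

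The 6 genes that did not pass in the mPFC were Dusp6 at −0.43 ± 0.15 (adjusted p = 0.061), Spry2 at −0.43 ± 0.15 (adjusted p = 0.062), Dusp5 at −0.45 ± 0.20, Spry4 at −0.36 ± 0.21, Dusp4 at −0.36 ± 0.21 and Dusp1 at −0.07 ± 0.18. Apart from Dusp1, which was lower in 3 of 6 pools, each was lower in the sucrose-seeking library of all 6 pools. Within a sex, none of the 10 passed in the mPFC (edgeR, with 5 in females and 4 in males at an unadjusted p under 0.05), and with the pool as a block 6 fell in females, against 8.96% of all genes, and 4 in males, against 9.96%. Over both sexes with the pool as a block, 9 of the 10 fell, all but Dusp1 (adjusted p = 0.76), against 13.2% of all genes. Dusp6 then had −0.42 ± 0.11 (adjusted p = 0.006), Spry2 −0.43 ± 0.11 (adjusted p = 0.0037), Spry4 −0.38 ± 0.10 (adjusted p = 0.006), Dusp5 −0.45 ± 0.15 (adjusted p = 0.029) and Dusp4 −0.38 ± 0.13 (adjusted p = 0.03).

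**Figure D3:**
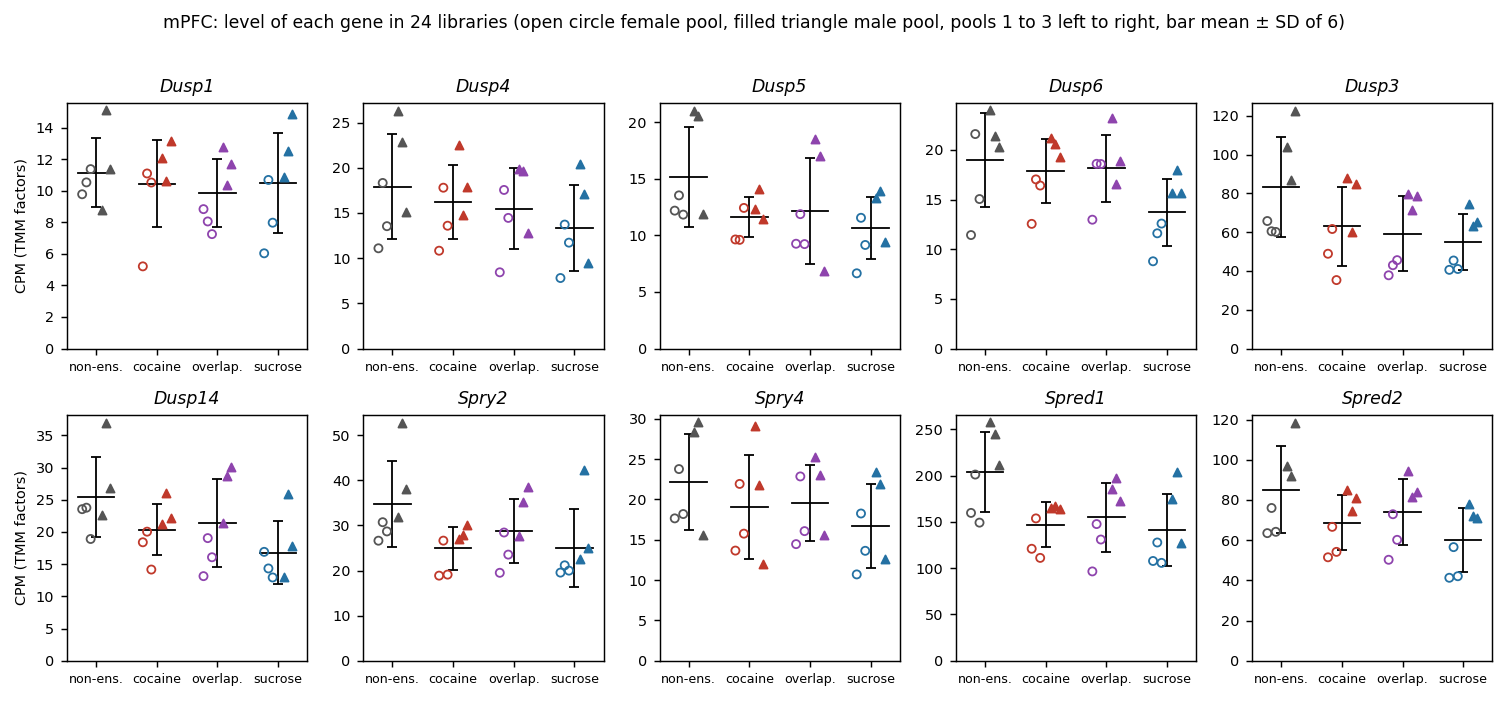
CPM of each gene in the 24 mPFC libraries, from 0, drawn as for the NAc, with pools 1 to 3 from left to right within each sex. The first and last triangle of each population are male pools 1 and 3, the libraries with high cortical markers, and for Dusp3 all 3 male non-ensemble values (87.1 to 122) lie above the female ones (60.1 to 65.8).

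Without female pool 2, Dusp3, Spred1 and Spred2 passed in the mPFC, against 5.02% of all genes that fell, and Dusp14 did not (adjusted p = 0.076). In male pools 1 and 3 alone, the libraries with cortical markers, 0 of the 10 passed with 2 libraries a group (edgeR, 0.0156% of all genes called), 4 had an unadjusted p under 0.05, against 15.9% of all genes, and the log2 fold changes were −0.68 ± 0.22 for Dusp3, −0.67 ± 0.29 for Dusp14, −0.61 ± 0.23 for Spred1 and −0.52 ± 0.22 for Spred2. These estimates are as large as those over all 6 pools. The neuronal markers moved in the mPFC too, with 2 of 4 falling and a median log2 fold change of −0.43, while 3 of 5 endothelial markers rose with a median of 0.82. Of the 15 genes linked to tissue dissociation, 4 fell there, where 12.3% of all genes of at least 5 CPM fell. They were Jund at −0.69, Dnajb1 at −0.62, Hsp90aa1 at −0.69 and Jun at −0.54. The list summed to 693 to 1593 CPM in non-ensemble and 394 to 1024 CPM in sucrose-seeking libraries. The part of either was not tested. The test of the difference between NAc and mPFC in this comparison called 0 of the 10 and 0 of all 28884 genes, and the test between the sexes in the mPFC called 0 of the 10 and 0 of all 28851 genes (edgeR). No member had an unadjusted p under 0.05 in either, against 4.62% and 4.34% of all genes, so these tests do not set the members apart from other genes.

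Among the 7 other MAP kinase phosphatases in the mPFC, Dusp8 fell by 0.61 and Dusp7 by 0.49 on the log2 scale, and no other was called. Of the 19 core genes 7 fell, with Map2k1 at −0.70, Mapk3 at −0.67 and Rasgrp1, an activator of RAS, at −0.56. Of the 13 JNK, p38 and ERK5 genes, Mapk9 was at −0.41, Map2k4 at −0.55 and Mapk12 at 0.72, and no other was called. Of the ERK effectors and targets 3 of 20 fell: Etv5 at −0.53, Ccnd1 at −0.78 and Egr1 at −0.73. Against the 12.3% of genes of at least 5 CPM that fell, the shares of the core genes and of the few other phosphatases were higher. Those of the effectors and targets and of the JNK, p38 and ERK5 genes were close. Of the other feedback inhibitors none fell and Rasa2, a RAS inactivator, rose by 0.44. Of the activity genes, the 4 with the smallest adjusted p all fell: Egr4 at −0.82, Egr1 at −0.73, Nr4a3 at −0.62 and Fosl2 at −0.52. The activity list had a median sum of 616 CPM in non-ensemble and 407 CPM in sucrose-seeking mPFC libraries, with overlapping ranges.

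The summed level of the 10 genes in cocaine-seeking and overlapping neurons lay between those in non-ensemble and sucrose-seeking neurons. These comparisons share the non-ensemble libraries, so they are not independent of each other. Sums are on a CPM scale set over all 60 libraries, so they do not add up from the CPM of single members, set over 48. Summed over the 10 genes, the median in the NAc was 593 CPM in non-ensemble, 502 in cocaine-seeking, 479 in overlapping and 393 in sucrose-seeking libraries. In the mPFC it was 507, 405, 412 and 335 CPM. Spred1, Dusp3 and Spred2 make up most of this sum, and not every gene followed it. In the NAc the mean of Dusp6 was 21.6 CPM in cocaine-seeking against 18.2 CPM in non-ensemble libraries. Dusp5 had a lower mean in cocaine-seeking (5.82 CPM) than in sucrose-seeking libraries (6.64 CPM). By edgeR 0 of the 10 passed for cocaine-seeking or overlapping against non-ensemble in either region, where few genes did: in the NAc 1.97% for overlapping and 0.145% for cocaine-seeking, and in the mPFC 0.568% and 0.0901%. At an unadjusted p under 0.05 there were 4 members in NAc overlapping, 3 in NAc cocaine-seeking, 2 in mPFC overlapping and 4 in mPFC cocaine-seeking neurons, against 22.5%, 16.8%, 18.4% and 19.2% of all genes, so the 2 in mPFC overlapping neurons are at the background. DESeq2 called 3, 1, 2 and 3 members, against 8.09%, 2.11%, 4.35% and 5.07% of all genes. Microglial markers were higher in these populations, with a NAc sum of 205 to 254 CPM in cocaine-seeking and 241 to 354 in overlapping against 105 to 165 CPM in non-ensemble libraries. Neuronal markers were lower. Their median sum in the NAc was 4649 CPM in non-ensemble, 3649 in cocaine-seeking, 3504 in overlapping and 3104 in sucrose-seeking libraries. In the mPFC these medians were 3305, 2648, 2633 and 2234 CPM. Oligodendrocyte markers in the NAc had medians of 3041 CPM in non-ensemble, 2186 in cocaine-seeking and 2240 in overlapping libraries. The part of these markers was not tested.

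Dusp3 and Spred1 were nearest to a call. In the NAc, Dusp3 was at −0.26 ± 0.10 in overlapping and −0.29 ± 0.10 in cocaine-seeking neurons, and Spred1 at −0.37 ± 0.13 and −0.29 ± 0.13. The cocaine-seeking values of Dusp3, 89.2 to 107 CPM, all lay below the non-ensemble ones, which held for 0.390% of genes with a mean of at least 1 CPM. With the pool as a block both genes fell in all 4 of these comparisons: in NAc overlapping Dusp3 by 0.27 (adjusted p = 0.02) and Spred1 by 0.37 (adjusted p = 0.0006), in NAc cocaine-seeking Dusp3 by 0.29 (adjusted p = 0.019) and Spred1 by 0.29 (adjusted p = 0.0084). In mPFC overlapping neurons the block gave −0.46 for Dusp3 (adjusted p = 0.0014) and −0.37 for Spred1 (adjusted p = 0.0016), and in mPFC cocaine-seeking −0.36 (adjusted p = 0.01) and −0.42 (adjusted p = 0.00049). The block further called Spred2 in NAc overlapping (−0.33) and in mPFC cocaine-seeking neurons (−0.26), and Spry2 in the latter (−0.41). Under the block 9.57% and 5.50% of all genes fell in NAc overlapping and cocaine-seeking neurons, and 8.56% and 9.40% in those of the mPFC. Dusp6 in the NAc had positive estimates in both populations, 0.13 ± 0.21 and 0.27 ± 0.21, and passed in neither.

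**Figure D4:**
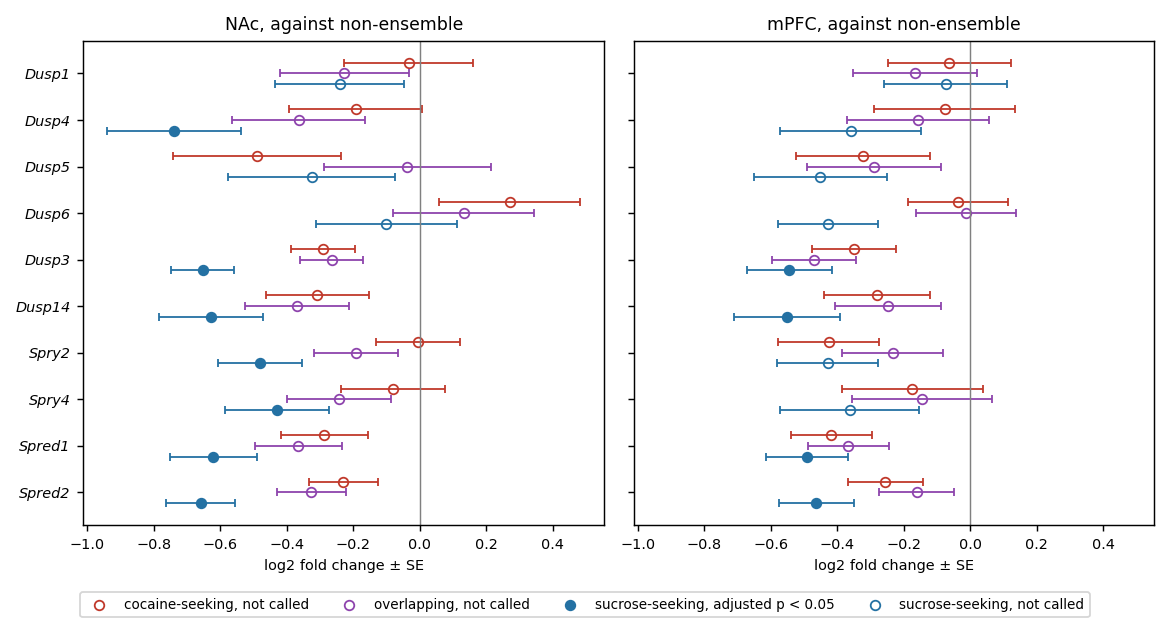
Log2 fold change ± SE of each gene against non-ensemble in the NAc (left) and mPFC (right), for cocaine-seeking, overlapping and sucrose-seeking neurons, with filled points where the adjusted p is under 0.05. Filled points are sucrose-seeking alone, 7 in the NAc and 4 in the mPFC, and the other populations mostly lie between them and 0.

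Set directly against sucrose-seeking neurons, 3 genes were higher in cocaine-seeking neurons of the NAc, against 4.36% of all genes and 8.95% of those with at least 5 CPM. Spry2 rose by 0.48 ± 0.13 (adjusted p = 0.031), from a median of 30.1 to 43.2 CPM, Spred2 by 0.43 ± 0.10 (adjusted p = 0.021), from 68.0 to 96.1 CPM, and Dusp3 by 0.36 ± 0.10 (adjusted p = 0.029), from 77.3 to 99.8 CPM. Of 24 fits that left out a library, 12 kept the call of Spred2, 3 that of Spry2 and 2 that of Dusp3. Without female pool 2 none of the 3 passed (adjusted p = 0.11, 0.058 and 0.074), with 0.967% of all genes higher. With the pool as a block 5 passed, adding Dusp4 at 0.56 (adjusted p = 0.017) and Spred1 at 0.34 (adjusted p = 0.00086), against 11.0% of all genes. Overlapping against sucrose-seeking neurons gave a higher level of Dusp3 alone in the NAc (0.39 ± 0.10, adjusted p = 0.044), against 0.951% of all genes, a call kept in 2 of the 24 fits that left out a library, and with the block also of Spred1 (0.26) and Spred2 (0.33), against 8.32%.

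In the mPFC edgeR called 0 members between cocaine-seeking or overlapping and sucrose-seeking neurons, against 0.416% and 0.322% of all genes. At an unadjusted p under 0.05 there were 1 and 2 members, against 8.30% and 8.39% of all genes. With the block, Dusp6 was higher in cocaine-seeking (0.39, adjusted p = 0.036) and overlapping neurons (0.41, adjusted p = 0.026), and Spred2 in overlapping neurons (0.30, adjusted p = 0.0077), against 2.27% and 3.01% of all genes. Between cocaine-seeking and overlapping neurons edgeR called 0 genes in either region, and 0 members had an unadjusted p under 0.05, against 2.81% of all genes in the NAc and 2.20% in the mPFC.

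Between the regions, in non-ensemble neurons, 3 members were higher in the NAc and 1 in the mPFC, against 9.57% and 6.08% of the 26009 genes tested. Dusp3 was higher in the NAc by 0.58 ± 0.11 (adjusted p = 0.0012), Spred2 by 0.38 ± 0.11 (adjusted p = 0.022) and Spred1 by 0.38 ± 0.11 (adjusted p = 0.03). The call was kept in 12 of 12 fits without a library for Dusp3, in 11 for Dusp5, 9 for Spred2 and 5 for Spred1, and all 4 held without female pool 2. Dusp5 was lower in the NAc, at −0.90 ± 0.24 (adjusted p = 0.017), with 5.02, 7.79 and 14.9 CPM there against 11.8, 12.9 and 21.0 CPM in the mPFC. The highest NAc value lay within the mPFC range and the other 5 below it. In male pools 1 and 3 alone, with 2 libraries a region and 0.277% of all genes called, Dusp5 was at −1.28 ± 0.46 (adjusted p = 0.51) and Dusp3 at 0.18 ± 0.20, Spred1 at 0.10 ± 0.20 and Spred2 at 0.04 ± 0.20, so the estimates of the genes higher in the NAc were nearer to 0 in the libraries with cortical markers. That difference was not tested.

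The transcripts of Dusp1 are described here by their share of its TPM, a measure picked after its values were seen and given with no test. Over the 48 libraries Dusp1-202, the main protein-coding transcript, held 51% of Dusp1 TPM, and the retained-intron transcripts Dusp1-203 and Dusp1-204 held 21% and 18%. In the NAc the retained-intron share was 20.1% ± 12 (SD, n = 6) in non-ensemble, 32.6% ± 20.1 in overlapping, 40.8% ± 21.7 in cocaine-seeking libraries and reached 46.1% ± 13.8 in sucrose-seeking ones. In the mPFC it was 25.2% ± 18.2, 42.4% ± 13.7, 39.9% ± 16.3 and 59.3% ± 8.88. Sucrose-seeking had the highest mean in both regions. The spread within populations was wide, and the split of reads between transcripts of a gene at this level is uncertain. Without female pool 2 the means were 47.0% against 20.1% in the NAc and 57.7% against 26.1% in the mPFC for sucrose-seeking against non-ensemble libraries.

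**Figure D5:**
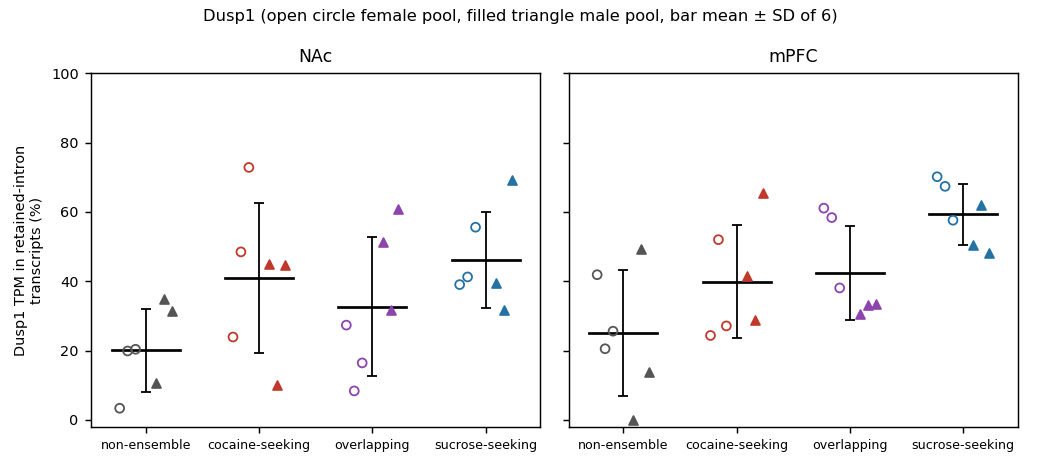
Share of Dusp1 TPM in retained-intron transcripts (percent) in each library of the NAc (left) and mPFC (right), by population, with symbols as in the plots of CPM and the mean ± SD of 6. Sucrose-seeking libraries average 46.1% and 59.3%, non-ensemble libraries 20.1% and 25.2%, with wide scatter in the other populations.

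The members differed in how they varied over the 48 libraries once the mean of each region and sex was taken off. Over 45 pairs of members, Pearson's r of log2 CPM ran from 0.087 to 0.81 with a median of 0.40, where the median over all pairs of the 13955 genes with at least 5 CPM was 0.062. The libraries share pools and depth. The mean of each population was not taken off, so the differences between populations given above enter these correlations. They are descriptions. The genes most like Spred1 were Ckb, Rragd and Dlg4 (r = 0.96, 0.95 and 0.95), those most like Spred2 were Eef1a2, Cyfip2 and Eno1 (r = 0.93, 0.93 and 0.92), and those most like Dusp3 were Ppp2r2c, Septin5 and Cyfip2 (r = 0.91, 0.90 and 0.90). Dusp14 was most like Egr3 (r = 0.82), an activity-induced factor, then Shroom2 and Mn1 (r = 0.81 and 0.81). Spry2 followed Smarcd1 (r = 0.85), Dusp4 Nap1l5 (r = 0.84) and Spry4 Zcchc12 (r = 0.83). Dusp6, Dusp5 and Dusp1 had looser matches: Dusp6 with Ly6e (r = 0.72), Dusp5 with Mrpl52 and Arc (r = 0.64 and 0.64) and Dusp1 with Marcksl1 (r = 0.62).

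The naive libraries were set against non-ensemble libraries in a fit of their own. They are deeper, at 29238727 to 45299753 counts, and their condition and their library set cannot be told apart. In the NAc 4 members were higher in naive libraries, against 9.67% of all genes: Dusp6 by 0.60 ± 0.18 (adjusted p = 0.029), Dusp1 by 0.56 ± 0.14 (adjusted p = 0.014), Dusp3 by 0.38 ± 0.08 (adjusted p = 0.0031) and Spry2 by 0.32 ± 0.09 (adjusted p = 0.027). Dusp4 was lower, at −1.01 ± 0.23 (adjusted p = 0.0069), against 8.33%. With the number in the title as a block the Spry2 call was lost (adjusted p = 0.052), with 7.87% of all genes higher. Whether naive libraries share mice or handling with the pool of that number is not stated. Calls under this block, here and in the mPFC, are therefore not weighed. In the mPFC 6 members were higher, against 14.9% of all genes, namely Dusp1, Dusp6 by 0.93 ± 0.16, Dusp3 by 0.86 ± 0.14, Spry2 by 0.58 ± 0.14, Dusp14 by 0.56 ± 0.14 and Spred2 by 0.38 ± 0.12. Dusp4 was lower, at −0.53 ± 0.17, and Spry4 at −0.47 ± 0.16, against 19.9%, and with the block Spred1 was also higher (adjusted p = 0.011), against 17.8%. The naive mPFC libraries held 225 to 1291 CPM of Slc17a7, more than most non-ensemble mPFC libraries. Other lists were higher in naive libraries too. Neuronal markers summed to 4037 to 8728 CPM in naive against 2194 to 4423 CPM in non-ensemble mPFC libraries. In the NAc they summed to 4279 to 7405 against 4321 to 4899 CPM, with medians of 5457 and 4649 CPM. The sum of the dissociation-linked genes was 1294 to 2528 CPM in naive against 693 to 1593 CPM in non-ensemble mPFC libraries, and 1457 to 2213 against 1180 to 1308 CPM in the NAc, with no overlap there. Activity genes summed to 780 to 1443 against 428 to 847 CPM in the mPFC, and microglial markers to 204 to 243 against 105 to 165 CPM in the NAc and 152 to 257 against 79.7 to 129 CPM in the mPFC. Their part in the differences of the members was not tested. Dusp1 had the largest difference there, 1.50 ± 0.15 (adjusted p = 2.2e-06), with naive levels of 23.4, 34.9 and 41.2 CPM. In males with the non-ensemble libraries of pools 1 and 3, it was 1.88, and Dusp6, Dusp14 and Spry2 were higher as well, against 6.41% of all genes, while Dusp3 was at 0.08 ± 0.14 and Spred2 went from 0.38 over all pools to −0.13.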

How the data were processed

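RNA of sorted NeuN-positive neurons from pooled mice was sequenced after low-input, ribosome-depleted library preparation. The authors used CutAdapt for trimming and Salmon for quantification on GRCm39, and the deposited values per transcript are estimated counts (not whole) and TPM. Their versions are not stated. Of 117209 transcripts, 116085 matched GENCODE vM39, and the 1124 others held 2.23 to 7.10% of counts. Estimated counts were summed per gene and rounded, and TPM summed.

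The test was edgeR 4.0.16 (R 4.3.3) quasi-likelihood with TMM factors and filterByExpr, and Benjamini-Hochberg adjustment over all genes. Each region had 1 fit with a mean per combination of sex and population. Contrasts were averaged over the sexes with equal weight. A gene was called at an adjusted p under 0.05. SE is the size of the log2 fold change over the square root of F. CPM of members in the 48 libraries used TMM factors over those 48. Sums over lists, marker levels and all naive levels used factors over all 60 libraries, so the 2 scales differ. Sexes, naive libraries and regions had fits of their own. The fits were tested on simulated data.

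The members and lists were chosen with earlier results of these data known. All 10 members are named. In each other list, up to 4 genes with the smallest adjusted p among those called were named, and for each member the 3 genes most like it by Pearson's r. The retained-intron share of Dusp1 was chosen after its values were seen.

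Populations of a pool came from the same mice by the sorting design. Deviations from group means correlated between same-pool libraries, with a mean r of 0.13 in female NAc and 0.092 in male NAc. In the mPFC it was 0.17 in females and 0.14 in males. For other pools the values were −0.066, −0.046, −0.085 and −0.069. Since the mean of each group was taken off, these follow from the same-pool values and add no separate comparison. Alternatives were DESeq2 1.42.0, limma 3.58.1 voom, no filter, length-scaled counts, the thresholds of the study (adjusted p under 0.01 and a log2 change over 0.75), the pool block and leaving out libraries. Leaving out female pool 2, and male pools 1 and 3 alone, were chosen after seeing the data.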

Additional observations from a re-analysis of the deposited data

Results flagged for a closer look

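Of 100 groups of 6 libraries, 10 genes in each of 10 combinations of region and population, 7 held a library far from the others by Dixon's criterion (gap over range above 0.625). Chance alone flags about 1 in 20 groups. Dusp1 was lowest at 9.30 CPM in NAc overlapping male pool 3, with the nearest library at 13.2 CPM, and at 5.21 CPM in mPFC cocaine-seeking female pool 1, with the nearest at 10.5 CPM. Dusp5 was highest at 14.9 CPM in NAc non-ensemble female pool 2 (nearest 8.35 CPM) and at 13.9 CPM in NAc overlapping male pool 2 (nearest 8.00 CPM). Spry2 was highest at 42.2 CPM in mPFC sucrose-seeking male pool 2 (nearest 25.0 CPM). In the female mPFC naive library numbered 2, Dusp3 was at 281 CPM (nearest 164) and Spred2 at 172 CPM (nearest 111).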

How the results depend on the processing

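Of 5279 log2 fold changes of members recomputed under alternatives, 4791 kept direction and side of the threshold, 234 changed sign without passing the test in either fit, 181 lost the call, 71 gained it and 2 reversed. The reversed values were Dusp5 in naive against non-ensemble mPFC, at −0.87 with length-scaled counts against 0.02, and Spred2 there, at −0.13 in males with non-ensemble pools 1 and 3 against 0.38. The cause was not tested.

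Members called were as follows. For sucrose-seeking against non-ensemble, 7 in the NAc became 0 at the study's thresholds and 5 with length-scaled counts. The 4 in the mPFC became 0 at those thresholds, 7 with DESeq2 and 2 with length-scaled counts. They became 0 in male pools 1 and 3 alone, where fewer samples enter. Overlapping against non-ensemble (0) gave 3 with DESeq2 in the NAc and 2 in the mPFC, and cocaine-seeking (0) gave 1 and 3. NAc cocaine-seeking against sucrose-seeking (3) gave 0 at the study's thresholds, with length-scaled counts and without female pool 2, and 1 with no filter. NAc overlapping against sucrose-seeking (1) gave 2 with DESeq2 and 0 under those other settings, no filter included. Naive comparisons gave 1 in the NAc (5) and 3 in the mPFC (8) at the study's thresholds, and 4 in mPFC males. The 24 within-sex comparisons (7) gave 0, 19 with DESeq2 and 2 with length-scaled counts. NAc against mPFC (4) gave 0 at the study's thresholds and in male pools 1 and 3, and 2 with length-scaled counts.

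With the pool as a replicate block, the calls were 9 for mPFC sucrose-seeking against non-ensemble, 3 and 2 for overlapping in the NAc and mPFC, 2 and 4 for cocaine-seeking, 5 and 1 for cocaine-seeking against sucrose-seeking, 3 and 2 for overlapping against sucrose-seeking, and 33 within the sexes, of which 20 were sucrose-seeking against non-ensemble.

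Leaving out each library in turn gave 5 to 7 calls for NAc and 3 to 6 for mPFC sucrose-seeking against non-ensemble, 0 to 2 and 0 to 1 for overlapping, 0 to 3 for NAc cocaine-seeking and 0 to 1 for NAc overlapping against sucrose-seeking, 3 to 5 and 5 to 8 for naive, 2 to 5 within sexes and 2 to 4 between regions.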
